A study of Homo sapiens with 3 samples.

Results

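RNA levels of 10 genes of the NF-kB system, of 26545 genes in the deposited tables, were followed in MTAC-P cells. They are the subunit genes RELA, RELB, NFKB1 and NFKB2, the inhibitor genes NFKBIA and TNFAIP3, and the target genes ICAM1, CXCL1, CXCL8 and LIF. The genes were chosen by name with their values in these libraries known, so their levels and differences are given as a description, and no test of a member is given. MTAC-P descends from the lung cancer line PC9 and resists inhibitors of the EGFR tyrosine kinase. The libraries labelled shBCAT1 1 and shBCAT1 2 were, by their labels, from cells with a short hairpin against BCAT1, the cytosolic branched-chain aminotransferase, and 1 control library was labelled as carrying one against luciferase. All 3 came from cells grown in DMEM with serum and from RNA taken with Trizol. Nothing in the labels says whether the shBCAT1 libraries share a hairpin or a culture, so the spread between them may be technical. The series' design text speaks of triplicate, and 1 control and 2 shBCAT1 libraries were analysed here.

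NF-kB is a family of dimeric transcription factors. In resting cells RELA and the p50 protein made from NFKB1 are held in the cytoplasm by IkB alpha, the product of NFKBIA. Signals from cytokine receptors activate the IkB kinase, IkB alpha is degraded, and the dimers enter the nucleus and switch on genes of inflammation, adhesion and survival. NFKBIA and TNFAIP3 are themselves targets of the factor and close a negative feedback loop. RELB pairs with p52, made from NFKB2, in the non-canonical branch. In lung epithelium and lung cancer cells the pathway is known for chemokine production and for survival under kinase inhibitors.

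The sequences before the starts of the genes were compared. The RefSeq promoter table (GRCh38.p14, 250 bases before to 50 bases after each start) held 8 of the 10 genes, all but RELB and LIF. It was searched on both strands for the classical 10-letter kB consensus, by its name, and for the 9-letter motif GGAAATTCC, which overlaps the consensus where a G precedes it or a C follows it. Of 35116 start sites in the table, 5.91% held the consensus and 0.461% the 9-letter motif. Of the members, 5 held the consensus at 1 start site or more (NFKBIA, NFKB1, NFKB2, TNFAIP3 and CXCL1) and 5 the 9-letter motif (NFKBIA, NFKB1, ICAM1, CXCL1 and CXCL8), while both start sites of RELA held neither. Members are counted per gene and the shares per start site, and NFKB1, NFKB2 and RELA have more than 1, so these measures differ. The motifs were chosen with these sequences in view, and a match is a description of letters, not of binding. Either motif was held by 7 of the 8 genes, so a match does not set apart the members that were low in any library. The stretches with matches are shown for these 7, 1 per gene. Each runs 5′ to 3′ on the strand of its gene, with the matches in capitals.
NFKBIA: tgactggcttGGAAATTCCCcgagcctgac
TNFAIP3: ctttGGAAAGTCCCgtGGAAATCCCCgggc
NFKB1: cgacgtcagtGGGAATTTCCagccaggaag
NFKB2: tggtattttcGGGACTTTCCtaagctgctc
ICAM1: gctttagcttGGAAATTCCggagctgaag
CXCL1: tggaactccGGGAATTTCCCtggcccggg
CXCL8: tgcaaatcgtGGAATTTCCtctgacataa

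The NFKBIA stretch lies at chr14:35404811-35404840 on the minus strand, with its match beginning 81 bases before the start of the gene. All others are on the plus strand. TNFAIP3 has 2 matches within chr6:137867188-137867217, the first beginning 67 bases before the start, and NFKB1 has 1 at chr4:102501300-102501329, 49 bases before. For NFKB2 the stretch at chr10:102395674-102395703 is shown, 21 bases before the start site nearest to the transcript that carried most of its value. ICAM1 (chr19:10270924-10270952), CXCL1 (chr4:73869305-73869333) and CXCL8 (chr4:73740468-73740496) have matches that begin 186, 79 and 91 bases before their starts. The deposited loci of ICAM1, TNFAIP3 and NFKB2 begin 279, 71 and 1595 bases upstream of these RefSeq starts. Their stretches therefore lie inside the deposited loci. The main NFKB2 transcript begins at 102395596 in the deposited data, so the NFKB2 stretch lies inside its locus too.

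Values are FPKM, fragment numbers scaled by transcript length and library total, summed over the RefSeq transcripts of a gene, with the authors' Cufflinks confidence bounds carried over to the sum. The bounds cover counting error within 1 library and no spread between libraries. BCAT1, the targeted gene, was at 1.05 FPKM (bounds 0.835 to 1.27) in the library labelled shBCAT1 1, at 0.241 FPKM (0.158 to 0.325) in the library labelled shBCAT1 2, against 0.213 FPKM (0.129 to 0.297) in the control. The target was therefore not lower in either library, and every direction here is between libraries as labelled. FPKM summed to 44312.5, 46145.4 and 53897.6 in the libraries labelled shBCAT1 1, shBCAT1 2 and the control, and read totals are unknown. Epithelial keratins marked all libraries, with KRT8 at 256, 410 and 295 FPKM in the same order, while the lung lineage genes NKX2-1 and SFTPB stayed at or below 0.101 FPKM. Of 6 leukocyte markers, 2 were listed at 0 in all libraries and the summed level was 0.237 and 0.218 FPKM in the libraries labelled shBCAT1 and 0.258 FPKM in the control, so RNA of leukocytes, which express many NF-kB targets, was near 0. The 4 fibroblast markers summed to 0.259 and 0.214 FPKM in the libraries labelled shBCAT1 and 0.105 FPKM in the control, and the 3 endothelial markers to 0.221 and 0.115 against 0.197 FPKM.

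**Figure D1:**
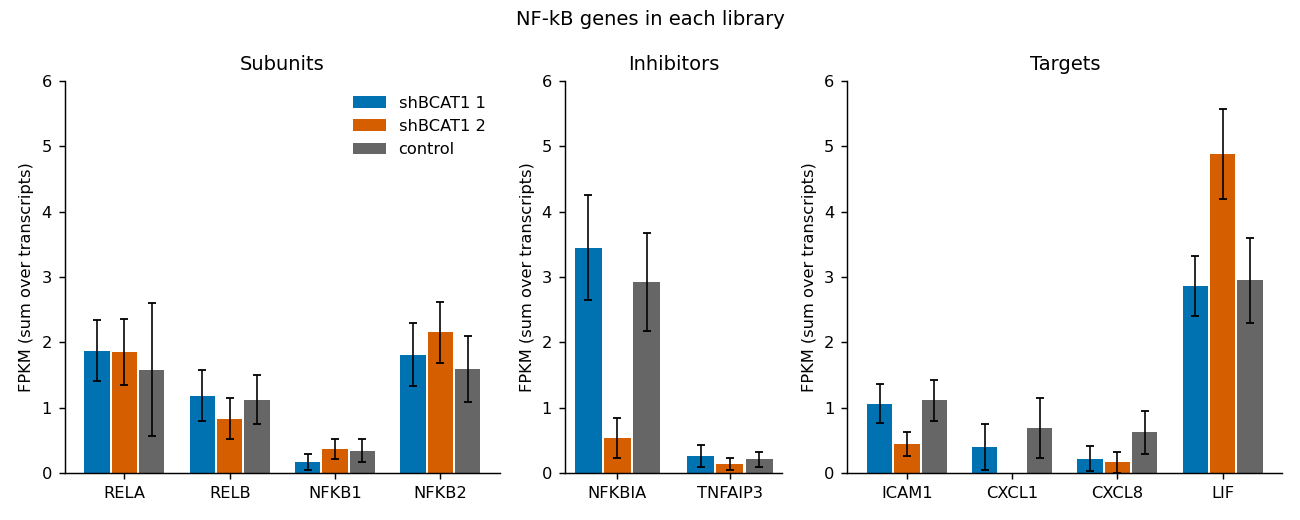
FPKM of the 10 NF-kB genes (vertical axis, linear, sum over RefSeq transcripts) in the libraries labelled shBCAT1 1 and shBCAT1 2 and in the control, in panels by role. Bars are single libraries and whiskers the confidence bounds carried over from the authors' tables. NFKBIA and ICAM1 are low and LIF is high in the library labelled shBCAT1 2 alone, and CXCL1 is listed at 0 there and drawn without whiskers.

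The 4 subunit genes had overlapping bounds in the 3 libraries. RELA (chromosome 11, 65653596 to 65662972, hg38), which encodes the p65 subunit with the transactivation domain, was at 1.87 FPKM in the library labelled shBCAT1 1, 1.85 in the library labelled shBCAT1 2, against 1.58 in the control. NFKB2 (chromosome 10, 102394110 to 102402529) was at 1.81 and 2.15 FPKM against 1.59 in the control. RELB (chromosome 19, 45001449 to 45038198) was at 1.18 and 0.825 FPKM against 1.12 in the control. NFKB1 (chromosome 4, 102501329 to 102617302) was the scarcest subunit gene, at 0.166 FPKM (bounds 0.0419 to 0.291) and 0.362 (0.208 to 0.516) against 0.343 (0.169 to 0.517) in the control. Its counting SD was 37.4%, 21.3% and 25.4% of the value in the same order, so the 2.17-fold gap of NFKB1 between the libraries labelled shBCAT1 was not resolved at this depth. In the control the order of levels was NFKB2, RELA, RELB and NFKB1. Only NFKB1 lay apart from its neighbour RELB beyond the bounds.

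The 2 inhibitor genes differed from each other. NFKBIA (chromosome 14, 35401510 to 35404754), which encodes IkB alpha, was at 3.45 FPKM (bounds 2.64 to 4.26) in the library labelled shBCAT1 1, at 0.537 (0.227 to 0.847) in the library labelled shBCAT1 2, against 2.92 (2.17 to 3.68) in the control. The library labelled shBCAT1 2 alone was low, 5.45 times below the control and 6.43 times below the library labelled shBCAT1 1, while the library labelled shBCAT1 1 overlapped the control. The FPKM difference of the library labelled shBCAT1 2 from the control was -5.85 times its counting error. NFKBIA has 1 RefSeq transcript in the tables, so no split between transcripts enters this value. On the log2(FPKM + 1) scale the difference from the control was 0.18 in the library labelled shBCAT1 1, against -1.35 in the library labelled shBCAT1 2. The mean of both was 1.99 ± 2.06 FPKM (SD, n = 2), a spread as large as the mean.

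TNFAIP3 (chromosome 6, 137867188 to 137883314) encodes A20, a ubiquitin-editing enzyme that ends NF-kB signalling. It was at 0.258 FPKM (bounds 0.0876 to 0.429) in the library labelled shBCAT1 1, 0.136 (0.0411 to 0.231) in the library labelled shBCAT1 2, against 0.207 (0.089 to 0.326) in the control. All bounds overlapped, and no difference of TNFAIP3 was detectable at this depth.

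Among the targets, ICAM1 (chromosome 19, 10270841 to 10286615), an adhesion molecule bound by leukocyte integrins, had the pattern of NFKBIA on a smaller scale. It was at 1.06 FPKM (bounds 0.76 to 1.36) in the library labelled shBCAT1 1, 0.441 (0.253 to 0.629) in the library labelled shBCAT1 2, against 1.11 (0.802 to 1.43) in the control. The library labelled shBCAT1 2 was 2.53 times below the control with bounds apart (-3.69 times the counting error of that difference). The other library overlapped the control.

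The chemokine genes CXCL1 and CXCL8 lie on chromosome 4, at 73869392 to 73871302 and 73740506 to 73743716, and encode ligands that draw neutrophils. CXCL8 was at 0.215 FPKM (bounds 0.0227 to 0.407) in the library labelled shBCAT1 1, 0.162 (0 to 0.325) in the library labelled shBCAT1 2, against 0.62 (0.288 to 0.951) in the control. Both libraries labelled shBCAT1 had lower values than the control, 2.89 and 3.81 times below it, and both overlapped it in their bounds. CXCL1 was at 0.401 FPKM (0.0485 to 0.753) in the library labelled shBCAT1 1, was listed at 0 in the library labelled shBCAT1 2 and was at 0.688 (0.228 to 1.15) in the control. The tables give bounds of 0 to 0 for a value listed at 0, which set no upper limit, so no fold is given for it. CXCL1 shares sequence with CXCL2 and CXCL3. CXCL3 was listed at 0 in every library, and CXCL2 at 0 in both libraries labelled shBCAT1 and at 0.0665 FPKM in the control. How reads were split between these paralogs was not tested.

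LIF (chromosome 22, 30240447 to 30246851), a cytokine of the interleukin-6 family, moved the other way. It was at 2.86 FPKM (bounds 2.41 to 3.32) in the library labelled shBCAT1 1, 4.88 (4.19 to 5.57) in the library labelled shBCAT1 2, against 2.95 (2.3 to 3.59) in the control. The library labelled shBCAT1 2 was 1.65 times the control and 1.7 times the library labelled shBCAT1 1, with bounds apart from both. LIF was the most abundant of the 10 genes on average over the libraries, and the one member with a higher value and bounds apart in any library. Its pair of differences from the control, -0.03 and 0.57 on the log2(FPKM + 1) scale, was most nearly matched by AHNAK (-0.04 and 0.55), SLC10A3 (-0.03 and 0.54) and TIMP2 (-0.01 and 0.60), over 3 libraries and among genes whose mean reached 1 FPKM. The small difference of LIF in the library labelled shBCAT1 1 changed sign with median-of-ratios scaling (0.09), with quantile normalization (0.10) and with the main transcript alone (0.25).

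Counted over all 10 members, 0 had bounds apart from the control in the library labelled shBCAT1 1, where 3.13% of 10683 genes whose mean reached 0.1 FPKM were lower and 0.88% higher. In the library labelled shBCAT1 2, 2 members were lower (NFKBIA and ICAM1) and 1 was higher (LIF), where 3.13% of genes were lower and 4.43% higher. The same 3 genes had bounds apart between the libraries labelled shBCAT1, where 0.88% of genes were lower and 4.39% higher in the library labelled shBCAT1 2. Nothing is read from these shares, since the members were chosen with their values known. The median difference of the 10 members from the control was 0.00 for the library labelled shBCAT1 1, against -0.15 for the library labelled shBCAT1 2, beside -0.12 and 0.01 for 3889 genes tested. These sets differ, since the 3889 genes have a mean of at least 1 FPKM and NFKB1, TNFAIP3, ICAM1, CXCL1 and CXCL8 do not. Over 16441 genes with no filter on low values the medians were -0.01 and 0.01. Of the members that reached 1 FPKM, NFKBIA differed by 0.18 and -1.35, NFKB2 by 0.12 and 0.28 and RELA by 0.15 and 0.14. RELB differed by 0.04 and -0.22, and LIF by -0.03 and 0.57. The comparisons share the control library. Median-of-ratios scaling gave a median of all genes of -0.01 in place of -0.12 in the library labelled shBCAT1 1, and a members' median of 0.09 there.

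**Figure D2:**
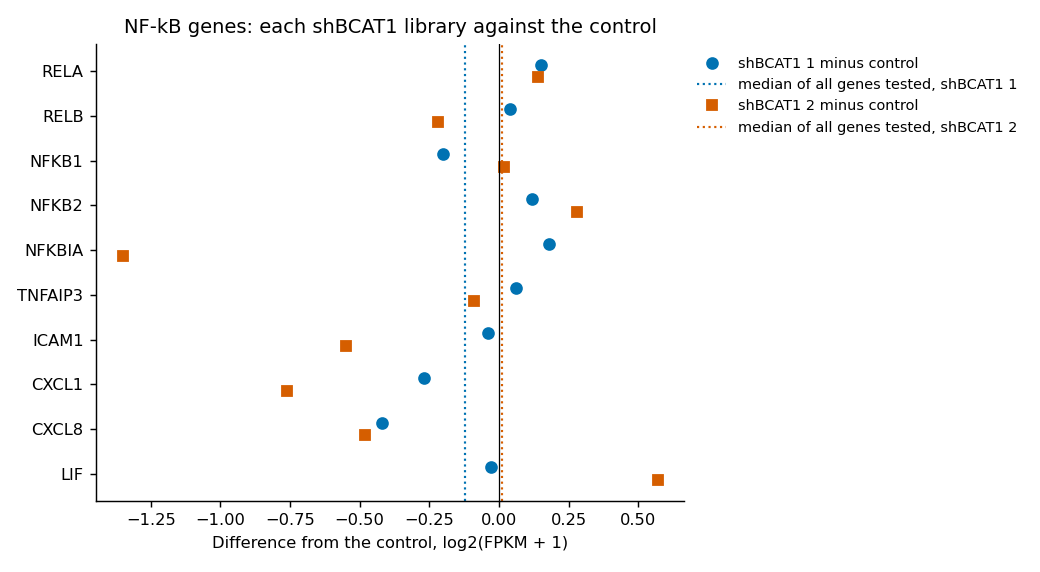
Difference of each NF-kB gene from the control on the log2(FPKM + 1) scale (horizontal axis), for the libraries labelled shBCAT1 1 (circles) and shBCAT1 2 (squares). Dotted lines stand at the median of all genes tested, whose mean reached 1 FPKM, unlike that of some members. NFKBIA stands at 0.18 for the library labelled shBCAT1 1 beside -1.35 for the library labelled shBCAT1 2, and LIF at -0.03 beside 0.57.

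A fit over both libraries was made with limma on log2(FPKM + 1), restricted to genes whose mean reached 1 FPKM, which 5 members passed (NFKBIA, NFKB2, RELA, RELB and LIF). It called 14 of 3889 genes at an adjusted p of 0.05 (0.36%), all lower. At an unadjusted p under 0.05 it called 193 genes lower (4.96%) and 25 higher (0.643%). This split depended on the scaling, with 105 lower and 69 higher under median-of-ratios scaling and 80 lower and 87 higher under quantile normalization. The number called at the adjusted p depended on which genes entered the fit, as given near the end. For the members the fit is given as fitted differences only, -0.59 ± 0.69 for NFKBIA (SE), 0.27 ± 0.32 for LIF, 0.20 ± 0.19 for NFKB2, 0.15 ± 0.18 for RELA and -0.09 ± 0.20 for RELB. On this scale the library labelled shBCAT1 2 minus that labelled shBCAT1 1 was -1.53 for NFKBIA, 0.61 for LIF and -0.01 for RELA.

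The transcripts that carried the value of RELA and NFKB1 differed between libraries. The main transcript of RELA in the libraries labelled shBCAT1 was NM_021975, at 1.87 FPKM (bounds 1.42 to 2.33) and 1.59 (1.15 to 2.04). A further transcript, NM_001243984, held 13.7% of RELA in the library labelled shBCAT1 2, at 0.253 FPKM (0.0277 to 0.478), and 6.58% in the control. NM_021975 was at 0.00194 FPKM (0 to 0.0579) in the control. The control's value lay on NM_001145138, at 1.48 FPKM (0.719 to 2.23), whose upper bounds were 0.0545 and 0.0516 in the libraries labelled shBCAT1. The bounds of NM_021975 and NM_001145138 lay apart between the groups, in opposite directions.

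NFKB1 was split in another way. NM_001165412 held 78.7% of the value in the library labelled shBCAT1 1, against 90.8% in the control, while NM_003998 held it in the library labelled shBCAT1 2, at 0.362 FPKM (0.211 to 0.512) against 0.0316 (0 to 0.1) in the control. Most of the value of NFKB2 lay on NM_001261403 in each library, at 1.36 and 1.97 FPKM in the libraries labelled shBCAT1 and 1.14 in the control. LIF carried a second transcript, NM_001257135, at 0.0245 FPKM (0 to 0.0868) in the library labelled shBCAT1 1, 1.35 (0.948 to 1.74) in the library labelled shBCAT1 2, against 0.725 (0.251 to 1.2) in the control. The transcripts of a gene share most of their sequence, and how far reads were assigned between them with certainty was not tested.

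**Figure D3:**
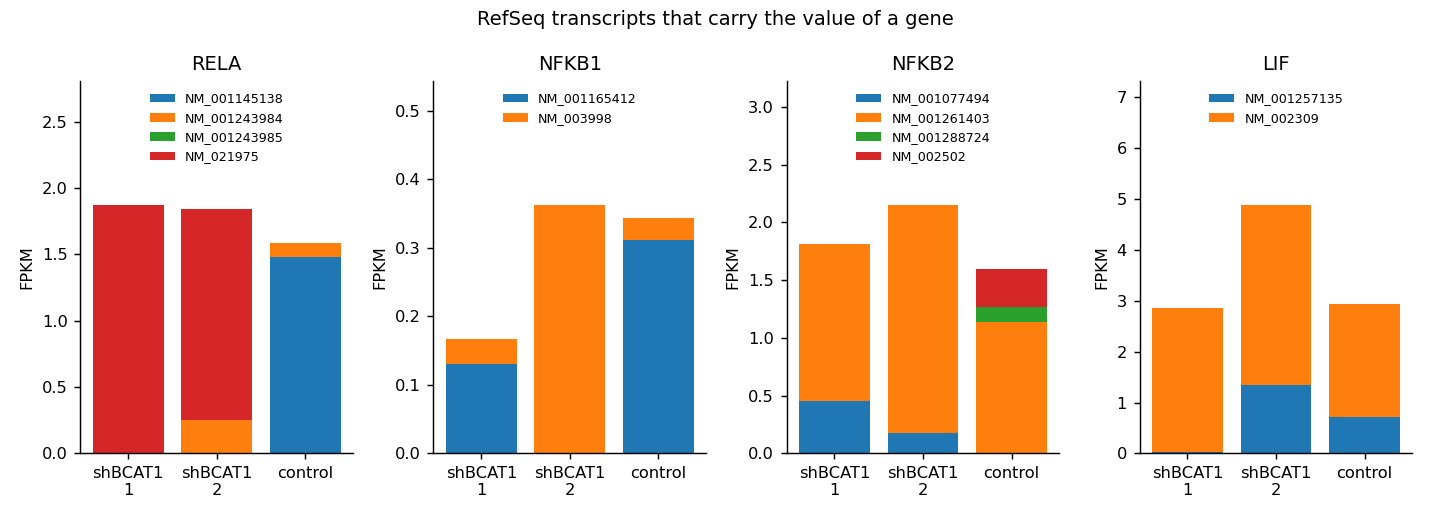
FPKM of each RefSeq transcript (stacked, vertical axis, linear) for RELA, NFKB1, NFKB2 and LIF in the libraries labelled shBCAT1 1 and shBCAT1 2 and in the control. The value of RELA sits on NM_021975 in the libraries labelled shBCAT1, at 1.87 and 1.59 FPKM, and on NM_001145138 in the control, at 1.48 FPKM.

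Other targets of the pathway were read from a list of 42 genes without the members. Of these, 12 reached a mean of 1 FPKM and 30 did not. The cytokine genes TNF, IL1A and IL1B, named after their values were seen, stayed at or below 0.0498 FPKM in every library. Not every cytokine gene of the list was as low. LTB was at 0.5 FPKM in the library labelled shBCAT1 1, listed at 0 in the library labelled shBCAT1 2 and at 0.825 in the control. By limma 0 of the 12 passed in either direction. In the library labelled shBCAT1 2, 8 genes had bounds below those of the control and 0 above, of 20 whose mean reached 0.1 FPKM, beside 3.13% and 4.43% of all genes at that level. These 8 are among the 12 genes above 1 FPKM, where 7.59% of all genes were lower and 7.33% higher by the same rule. Nothing is read from these shares. The list was chosen with earlier results of these data known, and the bounds rule after seeing the data. In the library labelled shBCAT1 1, 0 of the 20 had bounds apart from the control in either direction. The median difference of the 12 was -0.03 in the library labelled shBCAT1 1, against -0.49 in the library labelled shBCAT1 2, beside -0.12 and 0.01 for all genes tested.

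The most abundant of these targets in the control were LCN2, SAA1 and TNFAIP2. LCN2, which encodes the iron-siderophore binding protein lipocalin 2, was at 52.4 FPKM (bounds 47.7 to 57) in the library labelled shBCAT1 1, 8.87 (7 to 10.7) in the library labelled shBCAT1 2, against 57.8 (52.8 to 62.8) in the control. SAA1, which encodes serum amyloid A1, was at 42.4 FPKM (36.5 to 48.3), 0.186 (0 to 0.737) and 44.4 (38.4 to 50.5) in the same order. SAA1 has a near-identical copy in SAA2, so its value is uncertain. Both genes were low in the library labelled shBCAT1 2 alone. Their limma adjusted p over both libraries was 0.835 for LCN2, with a fitted difference of -1.36 ± 1.07 (SE), and 0.839 for SAA1, with -2.66 ± 2.26.

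The other 6 were smaller in size. The chemokine gene CCL5 was at 3.02 and 1.7 FPKM in the libraries labelled shBCAT1 1 and shBCAT1 2 against 3.48 in the control, the early response gene IER3 at 9.45 and 6.94 against 11.2, and the syndecan gene SDC4 at 5.65 and 5.14 against 6.9. These 3 had lower values in both libraries, and bounds apart from the control only in the library labelled shBCAT1 2. TNFAIP2 was at 13 and 10.1 FPKM against 12.1 in the control. SOD2, the mitochondrial superoxide dismutase, and C3, the third complement component, were chosen for mention after their values were seen, at 4.2 and 1.31 against 3.85 FPKM and at 1.81 and 0.57 against 1.65 FPKM. The bounds of SOD2 were wide, 0.386 to 2.23 in the library labelled shBCAT1 2 against 2.53 to 5.16 in the control. Adjusted p by limma was 0.806 for CCL5, 0.804 for IER3 and SDC4, 0.948 for TNFAIP2, 0.866 for SOD2 and 0.868 for C3.

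Of the 12 measured targets, those without lower values in the library labelled shBCAT1 2 were PLAU (urokinase), CFLAR, an inhibitor of caspase-8, the transcription factor gene CEBPB and the hyaluronan receptor gene CD44. CEBPB was at 3.66 and 3.39 FPKM in the libraries labelled shBCAT1 against 3.14 in the control, PLAU at 1.19 and 1.26 against 1.07, and CFLAR at 1.00 and 1.4 against 0.98. CD44, named after its value was seen, was at 2.54 and 3.79 against 2.71 FPKM. Bounds of these 4 genes overlapped the control in both libraries, with limma adjusted p of 0.892 for CEBPB, 0.899 for PLAU, 0.88 for CFLAR and 0.909 for CD44.

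**Figure D4:**
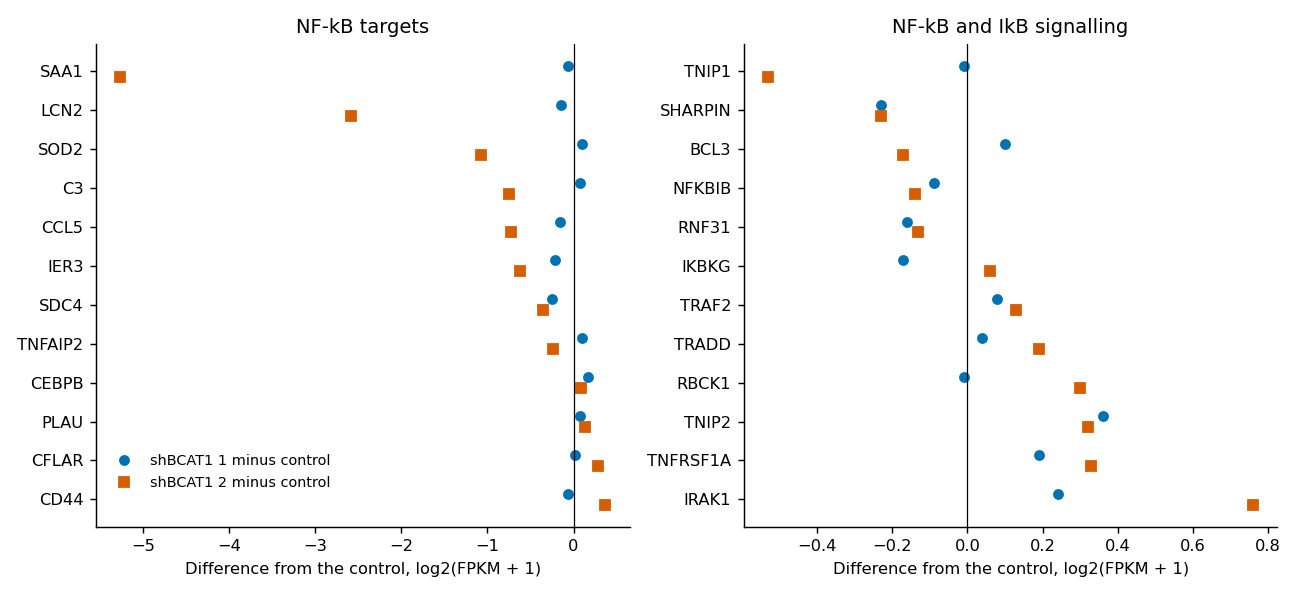
Difference from the control on the log2(FPKM + 1) scale (horizontal axes, which differ in range) for the measured genes of the target list and of the signalling list, in the libraries labelled shBCAT1 1 (circles) and shBCAT1 2 (squares). SAA1 and LCN2 stand at -0.07 and -0.14 for the library labelled shBCAT1 1, beside -5.26 and -2.58 for the library labelled shBCAT1 2, and in the signalling list TNIP1 and IRAK1 stand at -0.53 and 0.76 in the library labelled shBCAT1 2.

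Upstream components and other IkB proteins were read from a list of 34 genes, of which 12 reached a mean of 1 FPKM. By limma 0 of the 12 passed in either direction, and their median difference was 0.02 in the library labelled shBCAT1 1, against 0.09 in the library labelled shBCAT1 2. In the library labelled shBCAT1 2, 1 gene was lower and 1 was higher with bounds apart from the control, of 29 whose mean reached 0.1 FPKM, beside 3.13% lower and 4.43% higher among all genes at that level, so the counts are near the background. In the other library 0 were apart. The lower one was TNIP1, which encodes an A20-binding inhibitor of NF-kB, at 7.17 FPKM (bounds 6.09 to 8.25) in the library labelled shBCAT1 1, 4.69 (3.73 to 5.65) in the library labelled shBCAT1 2, against 7.2 (5.95 to 8.45) in the control. The higher one was IRAK1, a kinase of interleukin-1 and Toll-like receptor signalling, at 9.12 (7.9 to 10.3), 13.5 (12.4 to 14.7) and 7.58 FPKM (6.81 to 8.36) in the same order. Adjusted p by limma was 0.866 for TNIP1 and 0.804 for IRAK1.

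Members of the ubiquitin and kinase complexes had bounds that overlapped the control. IKBKG, the regulatory subunit NEMO of the IkB kinase, was at 4.51 and 5.47 FPKM in the libraries labelled shBCAT1 against 5.19 in the control, and its pseudogene copy makes the value uncertain. Of the linear ubiquitin ligase genes, RNF31 and SHARPIN were at 1.67 and 1.72 against 1.98 FPKM and at 3.19 and 3.16 against 3.9 FPKM, and RBCK1, named after its value was seen, was at 4.65 and 6.01 against 4.68 FPKM. The second IkB gene, NFKBIB, was at 2.76 and 2.63 against 3 FPKM, which sets it beside NFKBIA at a like level in the control and without the low value in the library labelled shBCAT1 2. TNIP2, the adaptor gene TRAF2 and the TNF receptor gene TNFRSF1A had higher values in both libraries, at 1.26 and 1.19 against 0.761 FPKM, at 1.65 and 1.74 against 1.51 and at 1.59 and 1.87 against 1.28. For these 8 genes the limma adjusted p lay between 0.797 for TNIP2 and 0.955 for IKBKG.

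Of 9 genes listed as receptors and signal transducers of the ligands, 0 had a mean of 1 FPKM, and the values named here were chosen after they were seen. The signal transducer genes STAT3 and JAK1 were not near 0. STAT3 was at 0.575 and 0.61 FPKM in the libraries labelled shBCAT1 against 0.644 in the control, and JAK1 at 0.412 and 0.315 against 0.439. LIFR, the LIF receptor, was listed at 0 in the library labelled shBCAT1 1 and stood at 0.0123 FPKM in the library labelled shBCAT1 2, against 0.00673 in the control, and its partner IL6ST (gp130) was at 0.0372, 0.0905 and 0.046 FPKM in the same order. The chemokine receptor gene CXCR2 was at 0.059 and 0.0393 FPKM in the libraries labelled shBCAT1 and 0.132 in the control. SOCS3, a feedback inhibitor induced by STAT3, was at 0.153 FPKM (bounds 0.028 to 0.277) in the library labelled shBCAT1 1, 0.434 (0.229 to 0.638) in the library labelled shBCAT1 2, against 0.21 (0.0615 to 0.358) in the control, with bounds that overlapped.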

How the data were processed

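The authors deposited FPKM with lower and upper confidence bounds for each library on its own. Trim Galore, TopHat, Cufflinks and hg38 are named in the submitters' processing notes. Their versions and settings, the annotation and the strand were not given in the sources used here. Each deposited table held 56882 entries for 50337 RefSeq accessions. Gene symbols came from RefSeq (GRCh38.p14) for 49281 accessions and from GENCODE release 29 for 625, with 431 left unnamed. Entries were summed per gene, and 341 genes with a status other than OK were left out. A bound was taken as 2 SDs from its value, and variances were added over transcripts, which widens the bounds where transcripts compete for reads. Bounds apart means no overlap between libraries, and a value at 0, whose bounds are given as 0 to 0, is never counted. This rule and its minimum of 0.1 FPKM were chosen after seeing the data.

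The comparison was fitted with limma 3.58.1 (R 4.3.3) on log2(FPKM + 1), a scale that understates changes of low genes, restricted to genes whose mean reached 1 FPKM, with a trend and two-sided Benjamini-Hochberg adjusted p-values. With 1 control library, residuals exist only between the libraries labelled shBCAT1 (residual df 1, prior df 2.99), whose spread is assumed for the control. Members and lists were chosen with earlier results of these data known. Named beside the members were, per list, up to 4 genes per direction that had the same sign in both libraries, ranked by the smaller of their absolute differences, the 3 with the highest control FPKM, and the 3 nearest to the most abundant member. Python 3.11.15, pandas 2.3.3, numpy 2.4.6 and matplotlib 3.10.9 were used.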

Additional observations from a re-analysis of the deposited data

How the results depend on the processing

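Genes lower by limma numbered 14, and 0 with no filter on low values, 8 at a minimum mean of 5 FPKM, 8 with transcripts kept apart and 1 without loci under 300 bases. These fits tested 16441, 1042, 3415 and 3810 genes in the same order, against 3889 in the main fit. Leaving out loci under 300 bases thus removed few genes, and why the number called fell was not tested. With no filter an unadjusted p under 0.05 was reached by 786 lower genes and 258 higher genes. Pathway list genes called by limma stayed at 0 in all 9 alternatives run. The members' median in the library labelled shBCAT1 2 (-0.15) became -0.30 with transcripts kept apart, and at a minimum of 5 FPKM no member was left. Median-of-ratios scaling, chosen for the bounds after seeing the data, gave 172 genes lower and 197 higher in the library labelled shBCAT1 1 (334 and 94 as reported) and 1 gene higher there in each of the signalling and target lists (0 as reported), and left 2 members and 8 targets lower in the library labelled shBCAT1 2. At a minimum mean of 1 FPKM, 1 member was lower and 285 genes higher in that library (2 and 473 as reported), since ICAM1 is below the minimum. With only the transcript of highest mean over the libraries kept, RELA was 1.52 and 1.37 above the control on the log2(FPKM + 1) scale. That RELA transcript was at 0.00194 FPKM in the control. NFKB1 was then at -0.39 in the library labelled shBCAT1 2, against 0.02 for the gene sum. The NFKB1 transcript kept was not the one that held the value there, which was at 0.362 FPKM against 0.0316 in the control. Leaving out a library labelled shBCAT1 left no residual degrees of freedom and no test, so each library's own difference stands for it. No paired analysis was possible because the control has 1 library, and its label carries no number. Low levels limit NFKB1, TNFAIP3, CXCL1 and CXCL8, with counting SDs of 21.3% of the value or more where above 0, and likewise ICAM1 (21.3%) and NFKBIA (28.9%) in the library labelled shBCAT1 2. RELA in the control also had a wide SD (32.1%), against 16.1% for NFKB2 at a like level there (1.58 and 1.59 FPKM). The SD of RELA is a sum of variances over its transcripts.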

Other observations

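Of the 29 signalling list genes whose mean reached 0.1 FPKM, 2 were lower and 2 higher in the library labelled shBCAT1 2 than in that labelled shBCAT1 1, with bounds apart. Among all genes at that level 0.88% were lower and 4.39% higher. These genes were TNIP1 and IRAK1, given above, and 2 kinase genes below 1 FPKM that were named after their values were seen. IKBKE, which encodes an IkB kinase related to TBK1, was at 0.473 and 0.116 FPKM in the libraries labelled shBCAT1 1 and shBCAT1 2, against 0.4 in the control. CHUK, the catalytic IkB kinase alpha, was at 0.0389 and 0.257 FPKM against 0.14 in the control. The bounds of both genes overlapped those of the control in each library. The other kinase genes of the list below 1 FPKM (IKBKB, TBK1, MAP3K7, MAP3K14, RIPK1 and IRAK4) had overlapping bounds between the libraries labelled shBCAT1.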
